A study of Homo sapiens with 4 samples.

Results

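The 31 genes described here encode the nuclear pore complex, and they were chosen by name from 60605 genes measured by RNA sequencing in OVCAR3, an established line of ovarian carcinoma cells of the high-grade serous kind. Messenger RNA of 4 libraries was sequenced, 2 from DMSO treated (control) cells and 2 from etoposide treated cells, and the question was which genes differ after DNA damage by etoposide, a topoisomerase II poison. The cells of both groups were first held in mitosis by nocodazole (100 ng/mL, 16 h), then washed and released for 3 h, and then received either 1.7 µM etoposide for 24 h or DMSO, the vehicle. All 4 libraries come from 1 cell line. The 2 libraries of a group are labelled as biological replicates, so that the spread between them is the only error that could be measured. Levels are given as FPKM (fragments counted per kilobase of a transcript and per sequenced library size), summed over the annotated transcripts of each gene, and differences are given on the scale log2(FPKM + 0.1), etoposide minus DMSO.

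The nuclear pore complex is the gate in the nuclear envelope through which RNA, proteins and ribosomal subunits pass between nucleus and cytoplasm. An outer ring and an inner ring form its scaffold, transmembrane nucleoporins anchor it, and nucleoporins with phenylalanine-glycine (FG) repeats line the channel, where transport receptors bind them. Filaments on the cytoplasmic side release exported mRNA and a basket faces the nucleus. The complex comes apart in mitosis and is rebuilt on chromatin as the envelope reforms, and it is present in every nucleated cell.

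All 31 genes were expressed and all passed the filter of a mean FPKM of at least 0.1. After etoposide 25 of them had higher values and 6 had lower ones, and their median difference was 0.18, where 56.2% of the 22185 genes tested were higher and the median over all of them was 0.036. None of the 31 passed an adjusted p of 0.05 in limma's test, where 0.0% of all genes did (0 of 22185, smallest adjusted p 0.169). At an unadjusted p under 0.05, 5 nuclear pore genes were higher (NUP210, NUP58, NUP155, NUP188 and NUP160) against 7.06% of all genes, and 0 were lower against 4.85%. Both etoposide libraries lay above both DMSO libraries for 22 of the 31 genes, which is 71.0% of them where the share over all genes was 28.9%, and below both for 3 (NUP35, SEC13 and AAAS) where the share over all genes was 19.0%. For any one gene, 2 libraries against 2 allow no two-sided p below 0.333 in an exact permutation test.

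The first DMSO library stood apart from the other 3 in the balance of long and short transcripts, and this touches most of the genes described here. Over the 22185 genes, the difference of DMSO replicate 2 minus replicate 1 followed transcript length (Spearman's rho 0.317) and GC content (rho −0.340), while for the etoposide replicates the rho with length was 0.0173. The median transcript length was 4987 bases for the nuclear pore genes, weighted by the FPKM of each gene's transcripts, and 2078 bases over all genes tested. Each difference is therefore also given after each library was corrected by loess for transcript length and GC content. After that correction 22 of the 31 nuclear pore genes had higher values, where 50.4% of all genes did, and 9 had lower ones. Their median was then 0.058 against 0.0020 over all genes. Their groups did not overlap for 17 upward and 5 downward (24.2% and 24.3% of all genes), and 6 were higher and 2 lower at an unadjusted p under 0.05 (7.23% and 8.1% of all genes). Again 0 of the 31 passed the adjusted threshold, as 34 of all genes (0.153%) did. Without DMSO replicate 1 the median was 0.11 and 0 of the 31 passed (0.0225% of all genes), while without DMSO replicate 2 it was 0.20 and 13 passed (12 higher and AAAS lower), where 8.72% of all genes did. When either etoposide library was left out, 0 of the 31 passed, where 0.442% (replicate 1 left out) and 0.46% (replicate 2 left out) of all genes did. The implied depth was 47687126 to 66500749 read pairs per library.

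The libraries had the profile of the labelled cells. PAX8, MUC16, EPCAM and keratins 7, 8 and 18, markers of serous carcinoma, summed to an FPKM of 2922 and 2576 in DMSO and 2001 and 2068 in etoposide, and the lowest single value was 11.4. The etoposide sums were below both DMSO sums, above all through keratin 8 (KRT8), at 1266 and 1055 against 772 and 821, while EPCAM was at 124 and 125 against 127 and 134. The markers of other cell types were low: the 3 leukocyte genes summed to 0.235 to 0.311 with CD3E at 0 in 1 library, the 3 fibroblast genes to 6.32 and 6.44 in DMSO and 7.81 and 7.62 in etoposide, and the 3 endothelial genes to 0.641 and 0.601 in DMSO and 1.02 and 0.857 in etoposide. The part of the carcinoma, fibroblast and endothelial genes in the nuclear pore values was not tested. In bulk RNA, fewer cells of a kind and less RNA per cell cannot be told apart.

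**Figure D1:**
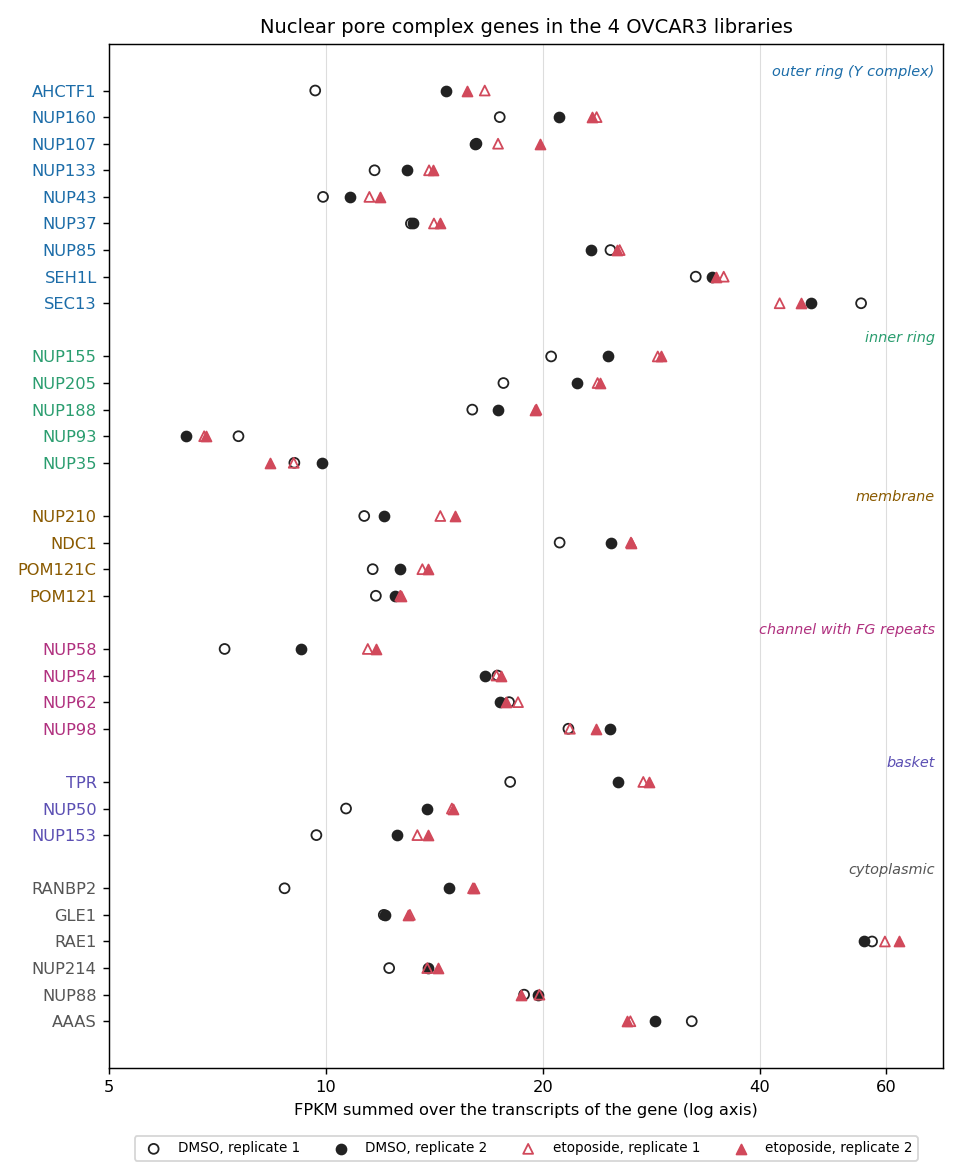
FPKM of each of the 31 nuclear pore genes (log axis) in the 4 libraries, grouped by structural part and ordered by the difference within each part. Circles are DMSO, triangles etoposide, open symbols replicate 1 and filled symbols replicate 2. The triangles lie to the right of both circles for 22 genes, and the open circle lies far to the left of the other 3 points for AHCTF1, TPR and RANBP2.

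**Figure D2:**
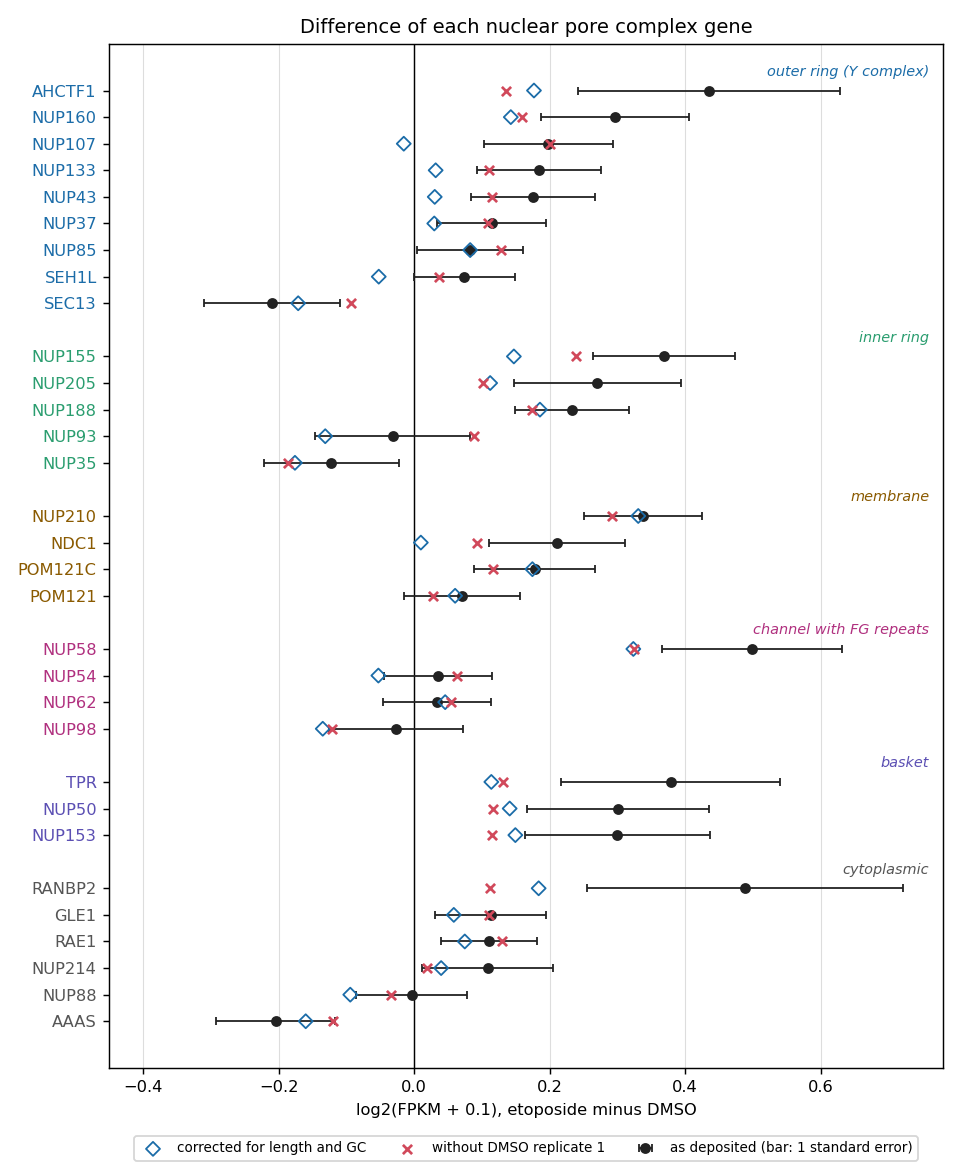
Difference of each gene on the log2(FPKM + 0.1) scale, etoposide minus DMSO, as deposited (black, with 1 standard error from limma), after correction for length and GC content (diamonds) and without DMSO replicate 1 (crosses). NUP58 and NUP210 have the highest values after the correction, 0.32 and 0.33, and without DMSO replicate 1, while AHCTF1, TPR and RANBP2 move from 0.43, 0.38 and 0.49 to 0.18, 0.11 and 0.18 with the correction.

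The sequence before the start sites of the nuclear pore genes was also compared, and 6 of these genes are shown. NUP210, NUP155 and NUP205 had higher values after etoposide as deposited, and SEC13 had lower ones. POM121 and POM121C are near copies of each other. Any part of the start sequence in the differences was not tested. RefSeq start regions (GRCh38.p14) were found for 28 of the 31 genes, and not for AHCTF1, NUP43 and GLE1. The 250 bases before the start were read, 5′ to 3′ on the strand of the gene, and in these 6 they overlap no exon of the deposited annotation. They lie at chr3:10321113-10321362 (minus strand, SEC13), chr3:13420323-13420572 (minus, NUP210), chr5:37371107-37371356 (minus, NUP155), chr7:135557667-135557916 (plus, NUP205), chr7:72879107-72879356 (plus, POM121) and chr7:75486300-75486549 (minus, POM121C). Capitals mark each match to a searched motif on either strand.
SEC13: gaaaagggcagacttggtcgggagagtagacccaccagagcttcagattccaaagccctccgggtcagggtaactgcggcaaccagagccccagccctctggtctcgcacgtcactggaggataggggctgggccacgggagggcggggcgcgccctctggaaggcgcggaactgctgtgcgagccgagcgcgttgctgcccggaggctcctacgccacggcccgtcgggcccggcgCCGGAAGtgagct
NUP210: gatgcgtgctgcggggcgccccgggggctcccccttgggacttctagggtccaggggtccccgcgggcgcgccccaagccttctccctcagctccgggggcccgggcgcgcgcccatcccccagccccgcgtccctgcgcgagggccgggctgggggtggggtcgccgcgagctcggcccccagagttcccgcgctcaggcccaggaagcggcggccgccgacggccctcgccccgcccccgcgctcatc
NUP155: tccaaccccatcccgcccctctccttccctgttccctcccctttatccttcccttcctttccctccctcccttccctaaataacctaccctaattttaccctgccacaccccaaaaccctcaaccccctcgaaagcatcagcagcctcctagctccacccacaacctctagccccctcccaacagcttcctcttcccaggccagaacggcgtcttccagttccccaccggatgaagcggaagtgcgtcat
NUP205: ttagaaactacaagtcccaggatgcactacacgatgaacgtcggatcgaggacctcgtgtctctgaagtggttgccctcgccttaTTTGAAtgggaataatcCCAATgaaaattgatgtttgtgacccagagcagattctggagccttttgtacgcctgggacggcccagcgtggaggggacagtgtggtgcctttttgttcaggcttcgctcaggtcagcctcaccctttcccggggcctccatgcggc
POM121: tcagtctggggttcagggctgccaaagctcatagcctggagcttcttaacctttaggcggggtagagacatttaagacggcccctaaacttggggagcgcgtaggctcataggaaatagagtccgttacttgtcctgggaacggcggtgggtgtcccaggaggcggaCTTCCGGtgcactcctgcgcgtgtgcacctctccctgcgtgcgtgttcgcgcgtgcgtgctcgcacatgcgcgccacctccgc
POM121C: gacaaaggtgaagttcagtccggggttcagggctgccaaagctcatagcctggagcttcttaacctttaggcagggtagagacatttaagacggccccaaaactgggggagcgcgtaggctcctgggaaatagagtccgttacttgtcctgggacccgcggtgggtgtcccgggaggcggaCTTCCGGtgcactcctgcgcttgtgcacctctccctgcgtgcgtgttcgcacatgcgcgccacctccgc

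Each of 6 motifs was searched on both strands, and none lies inside another. CCGGAAG is the core bound by ETS factors. GGCGGGAA is an E2F site, and TTTGAA is an element of cell cycle genes. The CCAAT box, the TATA box (TATAAA) and the palindromic NRF1 motif are the others. CCGGAAG occurred in 13 of 28 nuclear pore windows (46.4%), where 8.52% of all 35116 RefSeq start regions and 15.0% of those of 11319 protein-coding genes tested here held it. It stands close to the start in SEC13 and, as CTTCCGG, farther upstream in POM121 and POM121C, and it was also found for NUP35, NUP54, NUP214, NUP160, NUP107, NUP37, NUP58, NUP88, SEH1L and NUP50. The NRF1 motif occurred in 3 windows (NUP107, NUP62 and NUP50), or 10.7% against 1.03% of all start regions and 1.87% of the tested genes'. Of the 28 windows, 20 overlap an exon of the deposited annotation. In the stretch upstream of the first such exon, CCGGAAG was found for 6 genes (SEC13, POM121, POM121C, NUP35, NUP214 and SEH1L) and the NRF1 motif for 0, and the shares over all start regions were not limited in this way. The CCAAT box was found in 32.1% of the nuclear pore windows, 32.0% of all and 34.9% of the tested genes'. TTTGAA was found in 21.4%, 13.3% and 8.62%. Both of these occur in NUP205. The E2F site and the TATA box were not in these windows for any of the 28, where 2.72% and 10.7% of all start regions and 4.51% and 5.88% of the tested genes' held them. The 13 genes with CCGGAAG had a median difference of 0.11, with 10 of 13 higher, and the 15 without it had 0.21, with 12 higher. After the correction these medians were 0.030 and 0.083. Over the tested protein-coding genes the medians as deposited were 0.034 with the motif and 0.046 without it. NUP210 and NUP155 hold none of the 6 motifs. The POM121 and POM121C windows were identical at 216 of 236 bases aligned without gaps, 91.5%. These are matches of letters and no factor's binding was measured.

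The outer ring is built from the Y complex, a branched scaffold. Among its members are NUP107, NUP133, NUP160, NUP85, NUP43, NUP37, SEH1L and SEC13. The complex is recruited to chromatin at the end of mitosis by AHCTF1 (ELYS). Of these 9 genes 8 were higher after etoposide and SEC13 was lower, with a median of 0.18 as deposited and 0.030 after the correction. NUP160 (ENSG00000030066, chr11:47778087-47848555, minus strand), a subunit of a short arm of the Y, had an FPKM of 17.4 and 21.1 in DMSO and 23.8 and 23.4 in etoposide. Both etoposide libraries were above both DMSO libraries, which themselves lay 0.27 apart on the log2 scale. The difference was 0.30 ± 0.11 (SE), with an unadjusted p of 0.0362 and an adjusted p of 0.398 in limma's test, and it was 0.14 after the correction and 0.16 without DMSO replicate 1.

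AHCTF1 (ENSG00000153207, chr1:246839098-246931948, minus strand), the DNA-binding member that seeds pore assembly, was at 9.66 and 14.7 in DMSO and 16.6 and 15.7 in etoposide. The first DMSO library was far below the other 3 and the second was next to the etoposide libraries. The difference of 0.43 ± 0.19 (adjusted p = 0.435, limma) was smaller than the 0.60 between the DMSO replicates, and it was 0.18 after the correction and 0.14 without DMSO replicate 1. A pseudogene, AHCTF1P1, shares 31.5% of the 100-base windows of its leading transcript exactly, so that reads from these stretches could be divided between both genes.

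SEC13 (ENSG00000157020, chr3:10293131-10321112, minus strand), which also coats transport vesicles leaving the endoplasmic reticulum, had the opposite direction. It was at 55.4 and 47.1 in DMSO and 42.7 and 45.6 in etoposide. The groups did not overlap, although the second replicates of the groups were close. The difference was −0.21 ± 0.10 (adjusted p = 0.451, limma), −0.17 after the correction and −0.094 without DMSO replicate 1.

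The other 6 outer ring genes differed by 0.074 to 0.20. NUP107 was at 16.2 and 16.1 in DMSO and 17.3 and 19.8 in etoposide, and its difference of 0.20 was −0.015 after the correction. NUP133 was at 11.7 and 12.9 against 13.9 and 14.1, and NUP43 at 9.90 and 10.8 against 11.5 and 11.9. NUP37 was at 13.1 and 13.2 against 14.1 and 14.4. None of these pairs of libraries overlapped, yet each difference was at most 0.032 after the correction. NUP85 was at 24.8 and 23.3 in DMSO and 25.6 and 25.4 in etoposide, and its 0.083 was the same after the correction. SEH1L, which also works in the GATOR2 complex of nutrient sensing, was at 32.6 and 34.3 against 35.7 and 34.8, and turned from 0.074 to −0.052 with the correction.

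The inner ring bridges the membrane and the channel. Of its 5 genes, NUP155, NUP205 and NUP188 were higher and NUP93 and NUP35 were lower, with a median of 0.23 as deposited and 0.11 after the correction. NUP155 (ENSG00000113569, chr5:37288137-37371106, minus strand), which links the ring to the membrane, was at 20.5 and 24.6 in DMSO and 28.9 and 29.2 in etoposide. Its etoposide libraries were nearly equal and above both DMSO libraries. The difference was 0.37 ± 0.11, with an unadjusted p of 0.0132 and an adjusted p of 0.342 in limma's test, and was 0.15 after the correction and 0.24 without DMSO replicate 1. NUP188 (ENSG00000095319, chr9:128947699-129007096, plus strand), a large scaffold protein, was at 16.0 and 17.3 against 19.6 and 19.5. The gap between groups was wider than that between replicates in this gene. Its difference of 0.23 ± 0.08 (adjusted p = 0.392) changed little with the correction, to 0.19, with an unadjusted p of 0.0109.

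NUP205 (ENSG00000155561, chr7:135557917-135648757, plus strand), a paralog of NUP188, was at 17.6 and 22.3 in DMSO and 23.8 and 24.0 in etoposide. The DMSO replicates were farther apart, by 0.34, than the groups, by 0.27 ± 0.12 (adjusted p = 0.438, limma), and after the correction the difference was 0.11. NUP93, which joins the inner ring to the channel proteins, had the lowest mean FPKM of the 31, 6.89, with 7.56 and 6.39 in DMSO and 6.77 and 6.82 in etoposide. The etoposide values lay between the DMSO values, and the difference was −0.032 ± 0.11 (adjusted p = 0.923). After the correction it was −0.13 ± 0.15. NUP35, which contacts the membrane, was at 9.04 and 9.89 in DMSO and 9.02 and 8.35 in etoposide, with −0.12 as deposited and −0.18 after the correction. NUP35 has a transcript of 1519 bases, and the 3 higher genes of the ring have 5492 to 7689 bases, as does NUP93, a lower gene, with 6567.

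The transmembrane nucleoporins anchor the ring in the envelope, and all 4 were higher, with a median of 0.19 as deposited and 0.12 after the correction. NUP210 (gp210, ENSG00000132182, chr3:13316235-13420322, minus strand), whose bulk lies in the lumen between the membranes, was at 11.3 and 12.0 in DMSO and 14.4 and 15.1 in etoposide. The 2 groups were well apart and the replicates of each were close. Mean FPKM was 11.7 ± 0.521 (SD, n = 2) in DMSO and 14.8 ± 0.499 in etoposide, a ratio of 1.27. The difference of 0.34 ± 0.09 had the smallest p of the 31 genes in limma's test, 0.00865 unadjusted and 0.330 adjusted. The correction left it at 0.33 (unadjusted p = 0.00222, adjusted p = 0.117, limma). Leaving out a DMSO library gave 0.29 (replicate 1) and 0.38 (replicate 2). A median of 0.0086 was found after the correction over 4768 genes of at least 4000 bases. Its leading transcript, ENST00000254508, held 98.6% to 99.8% of the FPKM in every library and shared 0 windows of 100 bases with other genes.

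NDC1, which is needed to insert pores into the membrane, was at 21.1 and 24.9 in DMSO and 26.5 and 26.6 in etoposide. The groups did not overlap and the difference was 0.21 ± 0.10 (adjusted p = 0.451, limma), but after the correction it was 0.0098. POM121 (chr7:72879365-72951440, plus strand) was at 11.7 and 12.5 against 12.7 and 12.7, a difference of 0.070 ± 0.09 (adjusted p = 0.745). POM121C (chr7:75416786-75486299, minus strand) was at 11.6 and 12.7 against 13.6 and 13.8, a difference of 0.18 ± 0.09 (adjusted p = 0.458). The 2 genes had like levels in every library. They share 1783 of 5743 windows of 100 bases of POM121 and 31.8% of those of POM121C, so that reads could be divided between them either way. After the correction POM121C was 0.17 higher (unadjusted p = 0.0425) and POM121 0.060.

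The channel is lined by the trimer of NUP62, NUP54 and NUP58, whose FG repeats bind transport receptors, and by NUP98, a mobile FG nucleoporin that also visits active genes. The 4 genes had a median of 0.034 as deposited and −0.0036 after the correction. NUP58 (NUPL1, ENSG00000139496, chr13:25301556-25349800, plus strand) had the largest difference of the 31 genes. It was at 7.23 and 9.22 in DMSO and 11.4 and 11.7 in etoposide. The etoposide libraries were close to each other and above both DMSO libraries, and the mean ratio was 1.41. The difference was 0.50 ± 0.13, with an unadjusted p of 0.00984 and an adjusted p of 0.336 in limma's test. It was 0.32 after the correction (unadjusted p = 0.00371, adjusted p = 0.137) and 0.32 without DMSO replicate 1.

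The partners of NUP58 in the trimer had differences near 0. NUP54 was at 17.3 and 16.6 in DMSO and 17.2 and 17.5 in etoposide, and NUP62 at 18.0 and 17.5 against 18.5 and 17.8. The groups overlapped in both genes. The differences were 0.035 ± 0.08 (adjusted p = 0.872) and 0.034 ± 0.08 (adjusted p = 0.878), and NUP62 shares 15.0% of its windows with other genes. NUP98 was at 21.7 and 24.8 in DMSO and 21.8 and 23.7 in etoposide, with overlapping groups and a difference of −0.027 ± 0.10 (adjusted p = 0.924). After the correction it was −0.14 ± 0.06 (adjusted p = 0.356, limma), and both etoposide libraries lay below both DMSO libraries. Over all genes 24.3% did so after the correction. Within the trimer NUP58 had a mean FPKM of 9.90 over the 4 libraries, below 17.2 for NUP54 and 17.9 for NUP62. Its highest library was below the lowest of both. These levels are not corrected for length and GC content, which were 4421 bases and 40.8% for NUP58. For NUP54 they were 2047 bases and 38.5%, and for NUP62 3293 bases and 56.8%.

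The nuclear basket is made of TPR, NUP153 and NUP50, and it takes part in mRNA quality control, in chromatin contacts and in import. All 3 genes were higher with non-overlapping groups (28.9% of all genes), and all 3 had a low first DMSO library. Their median was 0.30 as deposited and 0.14 after the correction. TPR (ENSG00000047410, chr1:186311652-186375693, minus strand), the long coiled-coil protein of the basket, was at 18.0 and 25.4 in DMSO and 27.6 and 28.1 in etoposide. NUP153, which holds the basket to the ring, was at 9.70 and 12.6 against 13.4 and 13.8. NUP50, a cofactor of importin, was at 10.7 and 13.8 against 15.0 and 15.0. The second DMSO library was nearer to the etoposide libraries than to the first in each gene. The differences were 0.38 ± 0.16 (adjusted p = 0.427), 0.30 ± 0.14 (adjusted p = 0.437) and 0.30 ± 0.13 (adjusted p = 0.435) in limma's test. Between the DMSO replicates they were 0.49, 0.37 and 0.37. After the correction they were 0.11, 0.15 and 0.14.

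The cytoplasmic side holds RANBP2, NUP214, NUP88, GLE1, RAE1 and AAAS, of which 4 were higher and NUP88 and AAAS lower, with a median of 0.11 as deposited and 0.049 after the correction. RANBP2 (ENSG00000153201, chr2:108719482-108785809, plus strand), the SUMO ligase and Ran-binding protein that makes the cytoplasmic filaments, is the longest transcript of the 31 with 11620 bases. It was at 8.76 and 14.8 in DMSO and 16.0 and 16.1 in etoposide. The first DMSO library alone was low, and the difference of 0.49 ± 0.23 (adjusted p = 0.451, limma) was smaller than the 0.75 between the DMSO replicates. The correction brought it to 0.18. Leaving out a DMSO library gave 0.11 (replicate 1) and 0.86 (replicate 2). RANBP2 shares 14.6% of its windows with other genes, above all the RGPD genes that arose from it.

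RAE1, an mRNA export factor that binds NUP98 and also acts at the spindle, had the highest level of the 31, with 57.3 and 55.8 in DMSO and 59.7 and 62.5 in etoposide. The groups did not overlap and were close, with a difference of 0.11 ± 0.07 (adjusted p = 0.529). AAAS (ALADIN, ENSG00000094914, chr12:53307456-53324864, minus strand) had the opposite direction, with 32.2 and 28.6 in DMSO and 26.5 and 26.2 in etoposide. Its etoposide libraries were nearly equal and below both DMSO libraries. The difference was −0.20 ± 0.09 (adjusted p = 0.427, limma), −0.16 after the correction (unadjusted p = 0.0171) and −0.12 without DMSO replicate 1. GLE1, which activates the helicase that strips exported mRNA of its proteins, was at 12.0 and 12.1 against 13.1 and 12.98, a difference of 0.11. NUP214 was at 12.2 and 13.9 in DMSO and 13.8 and 14.3 in etoposide, and NUP88, its partner, at 18.8 and 19.7 against 19.8 and 18.6. The groups overlapped in both, with differences of 0.11 and −0.0037. After the correction these were 0.040 and −0.094, and the etoposide libraries of NUP88 then lay below both DMSO libraries. Over all genes 24.3% did so after the correction. RABEP1 shares 1338 of 3512 windows of NUP88.

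Length ran with the differences among the 31 genes. The 19 genes of at least 4000 bases had a median of 0.27, against 0.14 over all tested genes of that length, and the 12 shorter ones had 0.054, against 0.0072 over all shorter genes. After the correction these medians were 0.14 against 0.0086 and −0.011 against −0.00032. Across the 31 genes, the Spearman correlation of length with the difference was 0.628 as deposited, 0.394 without DMSO replicate 1 and 0.568 after the correction, and with DMSO replicate 2 minus replicate 1 it was 0.631. These points share the same 4 libraries and are given without a test. The part of length in the differences that remain after the correction was not tested.

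**Figure D3:**
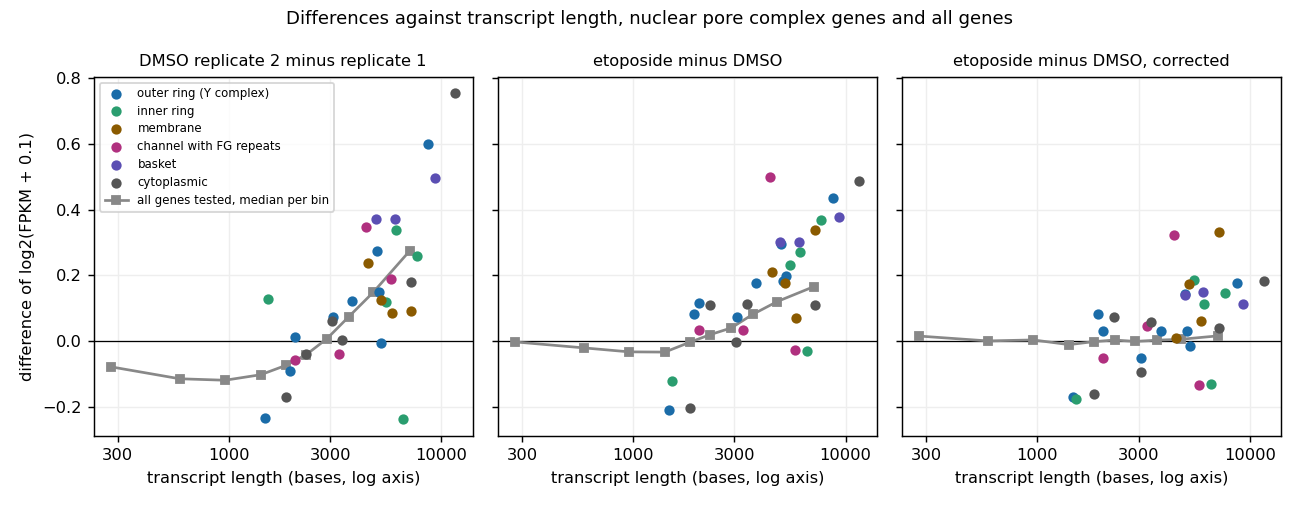
Differences on the log2(FPKM + 0.1) scale against transcript length (log axis) between the DMSO replicates (left), between the groups (middle) and between the groups after the correction (right). Coloured points are the 31 nuclear pore genes and grey squares are the medians of all genes tested in 10 bins of length. The grey line rises to 0.27 on the left and 0.17 in the middle in the longest bin, and is 0.016 there after the correction.

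The levels of the 31 genes spanned 8.55-fold in mean FPKM, from NUP93 at 6.89 to RAE1 at 58.8. RAE1, SEC13 (47.7) and SEH1L (34.3) came first, and the 4 libraries of each lay above all 4 of the next gene. AAAS (28.4) and NUP155 (25.8) followed. Of 30 neighbouring pairs in this order, 5 did not overlap over the 4 libraries, and the other 25 cannot be ordered beyond their spread. These first 3 genes have known roles outside the pore scaffold, in mRNA export, vesicle coats and nutrient sensing. Genes with lower levels, such as NUP98 and RANBP2, have other roles too. Any part of such roles in the levels was not tested. The summed FPKM of the 31 genes was 561 and 601 in DMSO and 630.2 and 639.5 in etoposide, and the etoposide libraries were above both DMSO libraries. These levels and sums are not corrected for length and GC content. RAE1, SEC13 and SEH1L have transcripts of 2299, 1475 and 3080 bases, where the median of the 31 was 4987.

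At the level of transcripts, 386 annotated transcripts of the 31 genes were in the files and 173 had a mean FPKM of at least 0.1. Among 71340 transcripts tested, 0 passed an adjusted p of 0.05 (0.0%), and the smallest adjusted p of a nuclear pore transcript was 0.530. At an unadjusted p under 0.05, 6 of the 173 were higher (3.47%) and 2 lower (1.16%), against 2.95% and 2.83% of all transcripts. One transcript led in all 4 libraries for 24 genes, and the leader held from 28.2% of the gene's FPKM (NUP85) to 99.3% (RANBP2). For 15 genes it held at least 80%.

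In 7 genes (AAAS, GLE1, NUP214, NUP85, NUP98, POM121 and RAE1) the leading transcript changed between libraries. A short RAE1 transcript annotated for nonsense-mediated decay, ENST00000492498, was at 1.07 and 0.376 in DMSO and 6.52 and 6.02 in etoposide, a difference of 3.09 ± 0.52 (adjusted p = 0.535, limma). That is 1.87% and 0.674% of the RAE1 level in DMSO and 10.9% and 9.63% in etoposide. In the same gene the main transcript, ENST00000395841, was at 22.8 in etoposide replicate 1 where ENST00000371242 stood at 24.4, while in the other 3 libraries they were at 43.4 to 43.8 and 4.49 to 6.14. The division between these near-identical transcripts thus differed within a group. A decay transcript of NUP85, ENST00000581104, was at 4.80 and 3.05 against 9.20 and 8.61, and one of GLE1, ENST00000683288, at 2.33 and 4.95 against 0.792 and 1.03. A SEC13 transcript, ENST00000397109, was listed at 0 and at 0.224 in DMSO and was at 1.91 and 3.02 in etoposide, at most 6.63% of the SEC13 level. For NUP153, ENST00000262077 was at 8.97 and 8.06 against 13.4 and 13.6. Another NUP153 transcript, ENST00000537253, was at 0.0523 and 4.23 in DMSO and 0.0218 and 0.0296 in etoposide. The division between these 2 transcripts thus also differed within DMSO.

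**Figure D4:**
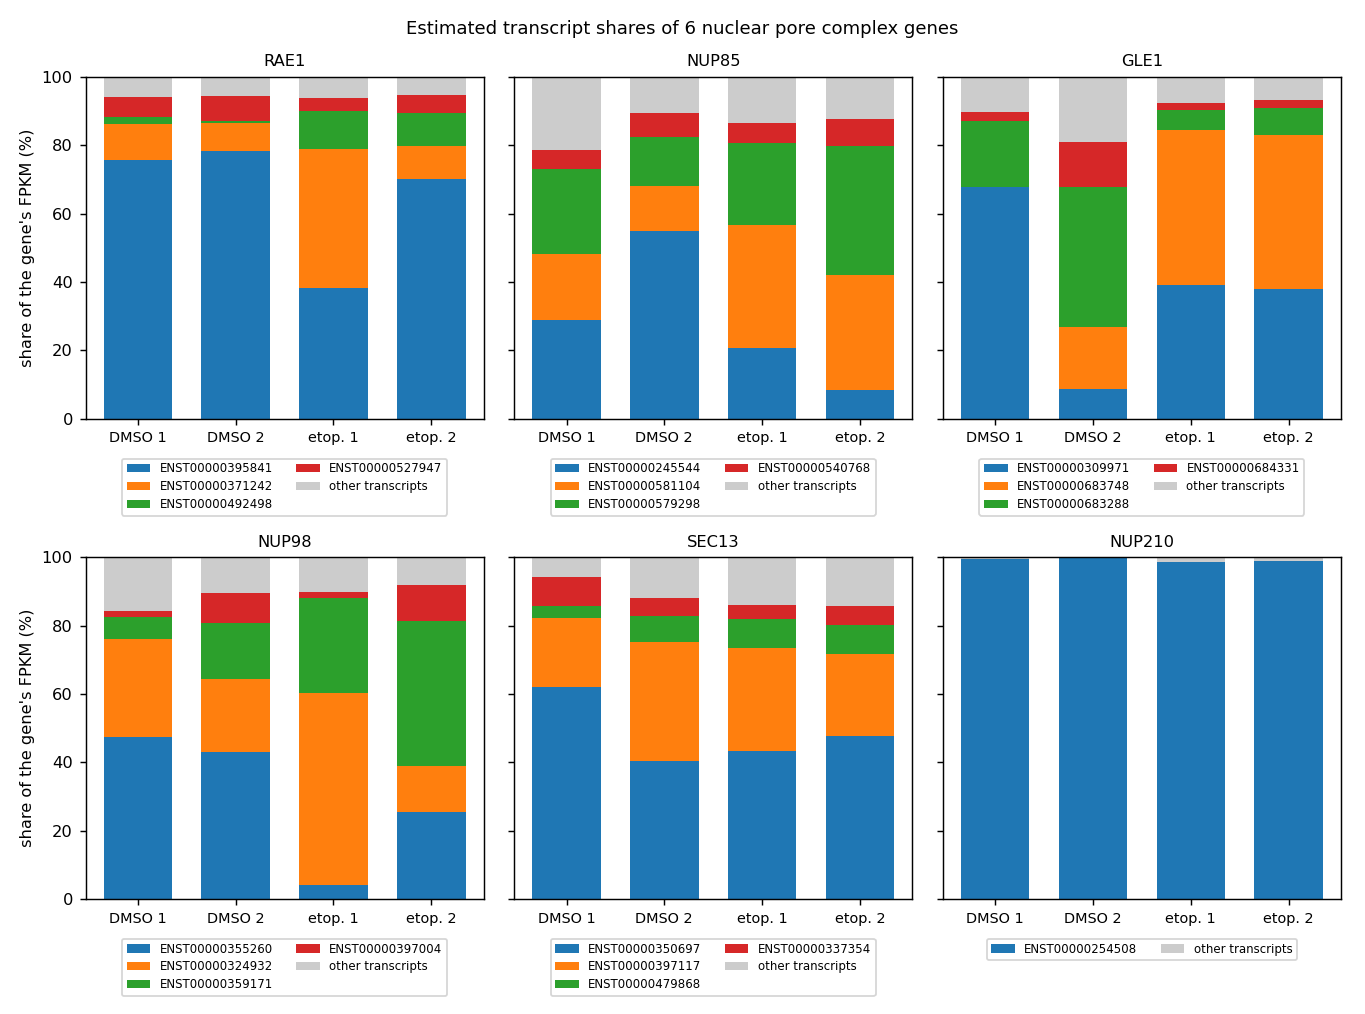
Share of each gene's FPKM (%) held by its 4 leading transcripts in each library, for 5 genes with several transcripts and NUP210. In RAE1 the share of ENST00000492498 is 0.674% to 1.87% in DMSO and 9.63% to 10.9% in etoposide, in GLE1 and NUP98 the shares differ between replicates, and in NUP210 a single transcript holds 98.6% to 99.8%.

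The genes that use the pore were compared in the same fit, and 0 of 59 tested passed an adjusted p of 0.05. Of 17 import receptors tested, 13 had higher values and 4 lower ones, and the median was 0.12 as deposited and 0.039 after the correction. TNPO1, which imports hnRNP proteins, was at 19.7 and 22.5 in DMSO and 26.3 and 27.2 in etoposide (0.34, adjusted p = 0.340, and 0.027 after the correction). IPO9 was at 17.4 and 20.1 against 22.5 and 22.5 (0.27, adjusted p = 0.395), and KPNB1, importin beta, at 66.1 and 75.8 against 83.9 and 82.6 (0.23, adjusted p = 0.401). IPO4, at 25.1 and 21.1 in DMSO and 19.9 and 17.4 in etoposide, had the largest downward difference of the list as deposited, −0.30, and was at −0.27 after the correction, where KPNA4 was at −0.32 (−0.054 as deposited). KPNA7 did not pass the filter, at 0 to 0.0080.

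All 7 export receptors were higher, with a median of 0.26 that was 0.048 after the correction. CSE1L, which returns importin alpha to the cytoplasm, was at 118 and 132 in DMSO and 149 and 150.3 in etoposide (0.26, adjusted p = 0.373, and 0.10 after the correction). XPOT, the tRNA exporter, was at 20.3 and 24.5 against 27.1 and 26.6 (0.27, adjusted p = 0.418), and XPO4 at 3.61 and 5.37 against 6.17 and 6.07 (0.47, adjusted p = 0.419). After the correction XPOT was at 0.048 and XPO4 at 0.17. The groups did not overlap upward in 6 of the 7 export receptors, where the share over all genes was 28.9%. After the correction this held for 3 of the 7, where the share was 24.2%. In the 3 genes named here, chosen by the smallest p, the first DMSO library was again the lowest.

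The Ran cycle, which gives transport its direction, held 3 higher and 4 lower genes of 7, with a median of −0.049. NUTF2, which brings Ran into the nucleus, was at 73.5 and 67.0 in DMSO and 82.2 and 78.9 in etoposide, and RAN itself at 132 and 117 against 107 and 109.6. Neither pair of groups overlapped, where 28.9% of all genes were apart upward and 19.0% downward. The difference was 0.20 for NUTF2 (adjusted p = 0.413, limma, and 0.22 after the correction) and −0.20 for RAN (adjusted p = 0.424, and −0.26 after the correction). RANBP1 was at 170.2 and 162 against 173 and 177, with 0.073 (adjusted p = 0.671). NUTF2 and RANBP1 have short transcripts of 1622 and 907 bases and RAN has 2188, and the first DMSO library was the higher of its group in each.

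Of 17 mRNA export genes 9 had higher values and 8 lower ones, and the median was 0.012 and −0.030 after the correction. THOC3 was at 25.1 and 24.0 in DMSO and 27.8 and 26.9 in etoposide (0.15, adjusted p = 0.454), ENY2 at 21.2 and 24.7 against 28.0 and 25.1 (0.21, adjusted p = 0.463) and THOC2 at 22.3 and 24.3 against 25.6 and 26.2 (0.15, adjusted p = 0.476). All 3 belong to complexes that load mRNA for export. Among further pore-associated genes, TMEM33 was at 23.4 and 26.9 against 30.8 and 31.2 (0.31, adjusted p = 0.358, and 0.17 after the correction), SMPD4 differed by −0.068 and NUP42 by 0.029. NUP210L, a germ cell relative of NUP210, did not pass the filter, at 0.0382 to 0.0535.

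The 7 RGPD genes and POM121B, near copies of RANBP2 and POM121, were at a mean FPKM of 0.576 to 3.22 and all 8 were higher, with a median of 0.35 and 0.11 after the correction. RGPD8 was at 1.81 and 2.50 in DMSO and 3.20 and 2.78 in etoposide (0.47, adjusted p = 0.405, limma), RGPD1 at 1.18 and 1.31 against 1.67 and 1.54 (0.34, adjusted p = 0.423) and RGPD4 at 0.436 and 0.532 against 0.660 and 0.674 (0.40, adjusted p = 0.451). RGPD3, RGPD4, RGPD5, RGPD6 and RGPD8 share windows with RANBP2, 9.93% of its leading transcript for RGPD3 and 7.93% for RGPD8. Their values are therefore not independent of it. POM121B shares windows with POM121 and POM121C.

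**Figure D5:**
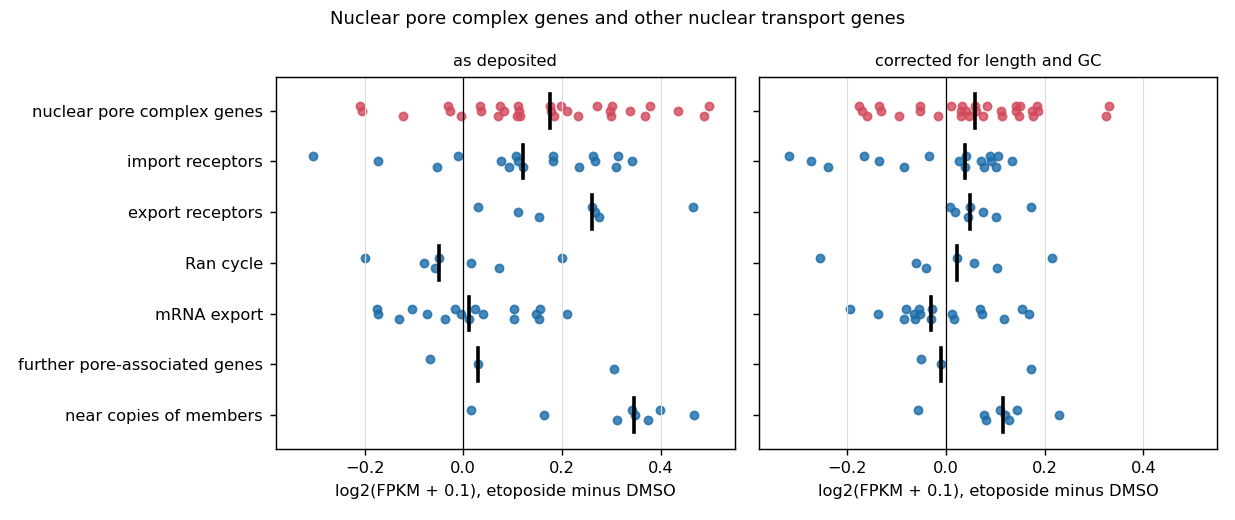
Differences on the log2(FPKM + 0.1) scale of the 31 nuclear pore genes (red) and of the 59 other nuclear transport genes tested (blue), each point a gene and each black bar a median, as deposited (left) and after correction for length and GC content (right). The median of the nuclear pore genes moves from 0.18 to 0.058, that of the export receptors from 0.26 to 0.048 and that of the Ran cycle genes from −0.049 to 0.022.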

How the data were processed

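Per the submitters' processing notes and the file headers, the authors aligned paired reads of 100 bases to GRCh38 with HISAT2 and ran StringTie 2.1.7 on Ensembl release 104 transcripts alone, with no strand option, so that reads of overlapping antisense genes cannot be told apart. The deposited files give coverage, FPKM and TPM per transcript, and no read counts. FPKM were summed per gene. limma 3.58.1 in R 4.3.3 (trend, robust) compared log2(FPKM + 0.1) of etoposide and DMSO over the 22185 genes whose mean FPKM reached 0.1, without a replicate block, and p-values were adjusted by Benjamini-Hochberg over all 22185. Transcripts were fitted likewise. The correction was loess (span 0.3) on length and GC content. Shared windows are 100-base stretches of a leading transcript also found in other genes of GENCODE 44. The fits were tested on simulated data. Intervals were not made, and limma's standard errors are given for some genes. The nuclear pore genes, their parts and the transport lists were chosen with earlier results of these data known, and named were the 3 genes of each part or list with the smallest p, the highest and lowest nuclear pore gene, and POM121 with POM121C. The values of the other nuclear pore genes, single transcripts, printed start regions, IPO4 and KPNA4 were chosen after values were seen. Alternatives were other pseudocounts, filters and scalings, TPM, voom on estimated fragments, the correction, the replicate block and leaving out each library. Python 3.11.15, pandas 2.3.3 and matplotlib 3.10.9 were used.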

Additional observations from a re-analysis of the deposited data

How the results depend on the processing

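The count of nuclear pore genes past an adjusted p of 0.05 was 0 under every alternative that kept all 4 libraries. With a library left out, 1 group has a single library, and no count is given for such fits. The number called over all genes was 0 in the main test, 1 with voom, 34 with the correction, 5 to 1934 with a library left out and 0 to 27 with the correction and a library left out (6 without DMSO replicate 1), and that of the transport genes was 0 to 15 with a library left out. The median difference of the nuclear pore genes was 0.18 in the main test, 0.16 with a pseudocount of 1, 0.24 with TPM, 0.14 with median-ratio scaling, 0.11 with voom, 0.058 with the correction, 0.11 to 0.20 with a library left out and 0.047 to 0.071 with the correction and a library left out, an alternative chosen after seeing the data. TPM moved the median of all genes from 0.036 to 0.10. The deviations of the same replicate numbers correlated at 0.013, which cannot show whether the samples were prepared in pairs. The replicate block left 0 nuclear pore genes and 0 genes called, and a median of 0.058 with the correction. Among values of single genes under the alternatives, 545 kept direction and side of the threshold, 13 passed it and 31 turned direction. Turned were NUP93 (0.035), NUP88 (0.063) and NUP98 (0.040) with TPM, NUP54 (−0.0018) and NUP62 (−0.0033) with median-ratio scaling, NUP37 (−0.040), NUP93 (0.029), NUP88 (0.028) and NUP98 (0.096) with voom, and SEH1L (−0.052), NUP107 (−0.015) and NUP54 (−0.053) with the correction, with or without the block. With a library left out NUP93 ranged from −0.15 to 0.088, NUP88 from −0.047 to 0.040 and NUP98 from −0.12 to 0.068. With the correction and a library left out NUP93 ranged from −0.35 to 0.086, NUP54 from −0.11 to 0.0063 (−0.037 and −0.067 without etoposide replicates 1 and 2), SEH1L from −0.086 to −0.019 (−0.072 and −0.032 without etoposide replicates 1 and 2), NUP107 from −0.16 to 0.13 and NUP133 from −0.0091 to 0.071. The causes were not tested. The files give no counts, and 2 libraries a group limit every p.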
